A study of Mus musculus with 50 samples.

Results

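Basal and luminal epithelial cells were sorted from mammary glands of DN-Clim mice, and their transcriptomes were compared to ask which differences between the lineages were present in cells that carry the transgene. These are 4 of the 50 arrays of the series, 2 from sorted DN-Clim basal cells and 2 from sorted DN-Clim luminal cells, chosen by genotype and sorted cell type alone. The same sort was applied to wild type (WT) glands, giving 4 further arrays against which the DN-Clim lineages were read, and the other 42 arrays, from laser-captured tissue, were not used.

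The mice were on the CB6F1 background. The sample labels give an age of 10 weeks, whereas the study's methods give a range of adult ages for sorted glands and one of its legends a younger age, so the exact age is uncertain. DN-Clim is a Myc-tagged, nuclear fragment of the co-factors of LIM domains (Clims, also named Ldb) that still binds LIM domains but can no longer pair with a second Clim, and so acts as a dominant negative. The keratin 14 promoter drives it, so among epithelial cells of the gland it is directed to the basal ones, and the DN-Clim luminal cells come from glands whose basal cells carry it. WT mice lack the transgene and, per the methods of the study, were littermates, 2 animals of each genotype. Cells negative for CD31, CD45 and TER119 were sorted as CD29hi CD24+ (basal) or CD29lo CD24+ (luminal). The titles of the luminal samples read CD29hi, whereas their tissue label and description read luminal and CD29lo, and they were taken as luminal. The sort chose the cells by the proteins of Itgb1 (CD29) and Cd24a, so these genes are not results here.

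The mammary duct is a bilayer. Inner luminal cells line the lumen, carry simple keratins and tight junctions, sense ovarian hormones or make milk. Outer basal cells express stratified-type keratins and p63, attach to the basement membrane, contract around the duct and, as a minority of the compartment, regenerate the gland upon transplantation. LIM-only and LIM-homeodomain factors depend on Clims to build larger transcription complexes, which is the interaction that DN-Clim blocks.

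Values are probe set intensities on a linear scale, and a difference is the mean log2 intensity of basal arrays less that of luminal arrays, with the standard error (SE) of a limma model over the 8 sorted arrays (n = 2 in each group). A gene was tested when its probe set reached 150 on at least 1 sorted array, which left 12471 genes, and it was called at a Benjamini-Hochberg adjusted p under 0.05. Intensities of different probe sets cannot be compared with each other, so levels of a gene are compared only between arrays. Sums over a gene list are also compared only between arrays, and genes of high intensity weigh most in them. With bulk RNA, fewer cells of a type and less RNA per cell cannot be told apart. Array medians lay between 119 and 130, and the replicates of a group correlated between 0.957 and 0.967 on the log2 scale. Basal arrays correlated with luminal arrays between 0.68 and 0.783, and the highest of these values was between DN-Clim basal replicate 1 and DN-Clim luminal replicate 2. The summed intensity of 20 pan-luminal genes was 23900 in DN-Clim basal replicate 1 and 16500 in replicate 2, against 80900 and 84600 in the luminal arrays. Where leaving out an array ended the call of a named gene or moved a count by over 1.5 times, this is given beside it, and the array left alone in its group was then assumed to vary like the other groups.

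The markers that define the lineages separated the DN-Clim arrays as their labels say. Krt5, a basal keratin, read 5189.7 and 6642 in DN-Clim basal cells and 50.3 and 83.1 in DN-Clim luminal cells. Its partner Krt14 read 7319.9 and 7375 against 69.7 and 163. Acta2, smooth muscle actin, read 12073 and 12182 against 266 and 864. For all 3 the basal arrays lay far above the luminal arrays, with differences of 6.50 (SE 0.36, adjusted p = 7.77e-05), 6.11 (SE 0.41, adjusted p = 0.000141) and 4.66 (SE 0.51, adjusted p = 0.000873). The simple keratins ran the other way. Krt8 read 5496 and 5192 in DN-Clim basal cells and 14481 and 14496 in DN-Clim luminal cells, a difference of -1.44 (SE 0.13, adjusted p = 0.000489). Krt18 read 3223 and 1183 against 10731 and 10408, a difference of -2.44 (SE 0.49, adjusted p = 0.01), and without DN-Clim luminal replicate 1 it was -2.41 with an adjusted p of 0.0538. Basal and luminal arrays did not overlap for any of these 5 genes, where they did not overlap for 68.6% of all genes tested in DN-Clim and 68.7% in WT cells, and the first basal replicate read well above the second for Krt18.

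**Figure D1:**
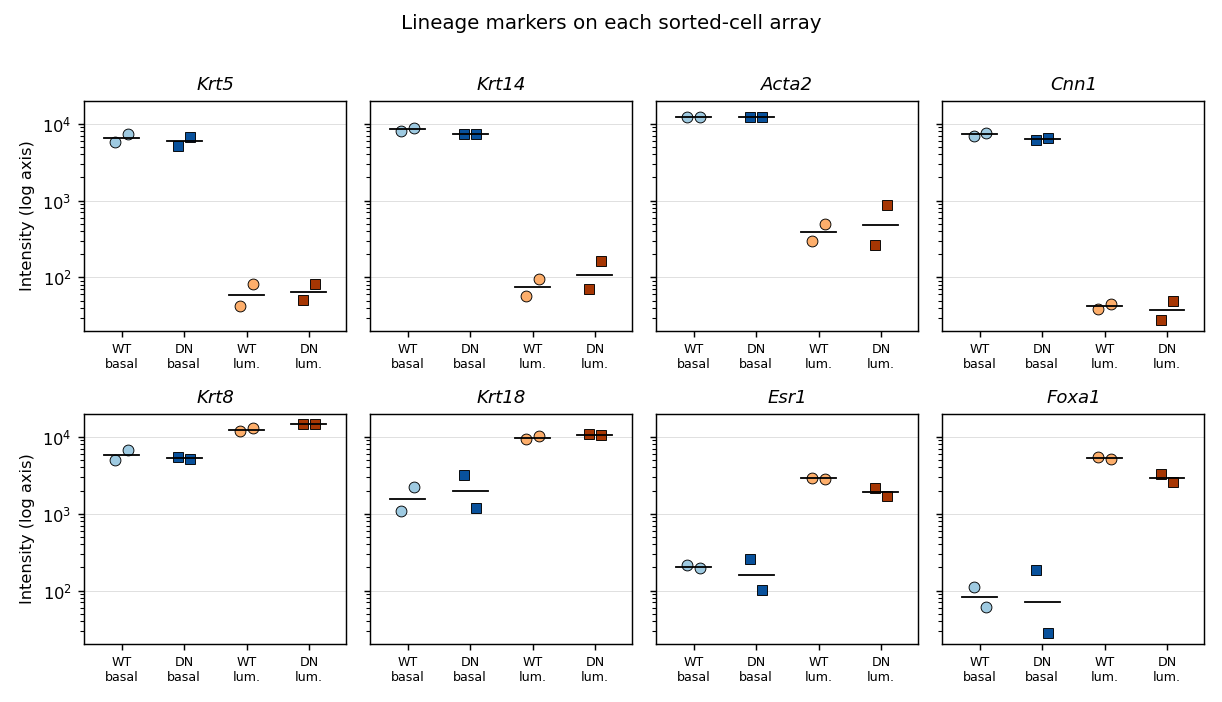
Intensity (log scale) of 8 lineage markers on each of the 8 sorted arrays: each point is 1 array, colour gives the cell type, and the black line is the geometric mean of the 2 arrays of a group. The basal markers Krt5, Krt14, Acta2 and Cnn1 are high in basal arrays of both genotypes, and Krt8, Krt18, Esr1 and Foxa1 are high in luminal arrays of both genotypes.

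Across the transcriptome, 3764 of the 12471 genes (30.2%) differed between DN-Clim basal and luminal cells, 1635 (13.1%) higher in basal and 2129 (17.1%) higher in luminal cells. Without DN-Clim luminal replicate 1 the count was 2086, without DN-Clim basal replicate 1 it was 2154 and without DN-Clim basal replicate 2 it was 2231. The median difference was -0.10 and its SD over genes 1.23. At least 4 log2 units separated the lineages for 209 genes on the basal side and 74 on the luminal side. The largest difference on the basal side, 7.47, was that of Them5, a thioesterase gene that read 2179 and 4413 against 20.9 and 14.6. Next to it stood Hs6st2, a heparan sulfate sulfotransferase, also at 7.47, but its luminal intensities of 3.51 and 2.25 are close to the bottom of the scale, and with 16 added to each intensity its difference was 4.77. The other 8 genes of the 10 largest on this side were Cnn1, Irx4, Actg2, Serpinb11, Myh11, Kcnmb1, Moxd1 and Cntn2, between 6.94 and 7.40. Serpinb11 was the least certain, at 7.22 (SE 1.62, adjusted p = 0.0156), and lost its call without DN-Clim basal replicate 2 (adjusted p = 0.0986), luminal replicate 1 (0.0633) or luminal replicate 2 (0.0586). On the luminal side the largest difference was that of Capn8, a calpain protease, which read 55.5 and 6.27 in basal and 1115 and 657 in luminal cells (-5.52, SE 0.92, adjusted p = 0.00502). Cyp3a57, Gm4847, Fgb, Foxa1, Krt4, Tmprss11a, Tspan1, Itih2 and Cldn7 followed, between -5.06 and -5.40. Cyp3a57 lost its call without DN-Clim basal replicate 2 (adjusted p = 0.0748) or luminal replicate 1 (0.0893).

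Genes of the contractile apparatus, with which basal cells squeeze the duct, were higher in basal cells as a group. Of 24 measured members 22 were called higher in basal cells, 0 higher in luminal cells and 2 were not called, with a median difference of 3.78 beside -0.10 over all genes tested. Cnn1, the actin-binding calponin, read 6147 and 6409 in DN-Clim basal cells and 28.3 and 49 in luminal cells, a difference of 7.40 (SE 0.25, adjusted p = 3.36e-05). Actg2, an enteric smooth muscle actin, read 2873 and 4009 against 14.9 and 30.5 (7.32, SE 0.36, adjusted p = 5.11e-05). Myh11, the smooth muscle myosin heavy chain, read 3857 and 3711 against 19.4 and 42.8 (7.04, SE 0.70, adjusted p = 0.000624). Both basal arrays stood far above both luminal arrays at each of these genes. Kcnmb1, the subunit that tunes the large calcium-activated potassium channel of smooth muscle, read 1189 and 1098 against 8.9 and 9.11 (6.99, SE 0.27, adjusted p = 3.36e-05). The member with the smallest difference was Ppp1r12b, a myosin phosphatase subunit, at -0.21 with an adjusted p of 0.36, but its probe sets disagreed: another read 1.65 higher in basal cells and the others lay between -0.30 and -0.64, so this gene has no settled direction. In WT cells, where the median was 4.31, 21 of the 24 were called higher in basal cells, and all 21 were called the same way in DN-Clim cells. The lineage difference was lower in DN-Clim than in WT cells for 21 of the 24, beside 6571 of all 12471 genes (median of the differences between genotypes -0.43, beside -0.02 over all genes). Of the 24, 5 had an unadjusted p under 0.05 in limma where 4.87% of all genes had, and none passed correction. This was not particular to the list. Of 21 basement membrane and hemidesmosome genes 18 had a lower difference and 5 such a p. Of 20 basal identity genes 15 had a lower difference and 3 such a p. Genes called in WT cells with an absolute difference of 4 or more had medians of 4.91 in WT and 4.32 in DN-Clim cells. That choice favours the larger WT value. Pericytes share much of this apparatus, and the 3 measured pericyte genes (Pdgfrb, Rgs5 and Des) summed to 1350 and 1310 in the DN-Clim basal arrays and to 143 and 285 in the luminal arrays. Their part in the contractile difference was not tested.

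Many contractile genes are targets of serum response factor (SRF), which binds the CArG box. The box, searched on both strands in the RefSeq promoter table (GRCm38.p6, 250 bases before to 50 after the start site), occurred in 535 of all 32851 promoters (1.63%). Of the 20 contractile genes with a promoter in that source, 3 held it. Counted by gene, with a box in any of its promoters, the box occurred in 488 of all 27025 genes (1.81%). For genes tested this was 164 of 9923 (1.65%). Of genes called higher in DN-Clim basal cells 38 of 1233 held it (3.08%). Of those called higher in luminal cells 14 of 1707 did (0.82%). The 3 contractile promoters are shown because they are the members of this list in which the box was found within the window, with the box in capitals. They lie at chr2:156775214-156775513 on the plus strand (Myl9, a myosin light chain, box centred 156 bases before the start), chr17:46556113-46556412 on the minus strand (Srf itself, boxes 77 and 57 bases before) and chr14:20929148-20929447 on the plus strand (Vcl, vinculin, 222 bases before).
Myl9 promoter: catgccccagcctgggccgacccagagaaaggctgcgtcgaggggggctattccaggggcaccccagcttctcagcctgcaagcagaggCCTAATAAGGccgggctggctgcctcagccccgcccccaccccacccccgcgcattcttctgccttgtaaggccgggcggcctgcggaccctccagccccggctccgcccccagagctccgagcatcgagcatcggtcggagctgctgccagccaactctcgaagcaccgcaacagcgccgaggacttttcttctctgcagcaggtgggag
Srf promoter: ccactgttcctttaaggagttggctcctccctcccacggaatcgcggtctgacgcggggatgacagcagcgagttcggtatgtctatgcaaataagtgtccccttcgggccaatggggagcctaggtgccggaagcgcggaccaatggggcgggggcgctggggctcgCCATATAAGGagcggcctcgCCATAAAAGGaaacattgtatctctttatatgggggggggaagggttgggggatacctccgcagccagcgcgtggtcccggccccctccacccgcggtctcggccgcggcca
Vcl promoter: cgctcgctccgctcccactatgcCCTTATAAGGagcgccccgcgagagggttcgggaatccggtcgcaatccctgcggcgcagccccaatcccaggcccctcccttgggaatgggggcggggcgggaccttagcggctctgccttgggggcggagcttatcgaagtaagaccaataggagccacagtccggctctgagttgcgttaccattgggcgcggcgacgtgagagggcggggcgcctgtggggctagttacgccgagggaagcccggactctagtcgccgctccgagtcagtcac
The basal minus luminal difference in DN-Clim cells was 6.38 for Myl9, 1.00 for Srf and 1.00 for Vcl. A match of these letters describes the sequence and not a bound site.

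Genes of basal identity also stayed on the basal side. Of 20 measured members 17 were called higher in DN-Clim basal cells, 1 higher in luminal cells and 2 were not called, with a median difference of 4.67. Irx4, an Iroquois homeodomain factor, read 2012 and 2046 in basal and 8.6 and 17.3 in luminal cells (7.38, SE 0.34, adjusted p = 4.78e-05). Nrg1, the neuregulin ligand of the ErbB receptors of luminal cells, read 2281 and 4612 against 34.8 and 47.9 (6.31, SE 0.52, adjusted p = 0.000322). Both genes were clear of overlap, although the basal replicates of Nrg1 were far apart. The smallest difference was that of Cav2, a caveolin, at -0.18 (adjusted p = 0.55, 95% interval -0.64 to 0.28). The 1 member called higher in luminal cells, Tspan8, is named after its values were seen: this tetraspanin read 40.4 and 16.6 in basal and 225 and 219 in luminal cells (-3.10, SE 0.63, adjusted p = 0.0109), and in WT cells it was not called (-0.60). Its call ended without DN-Clim basal replicate 2 (-2.46, adjusted p = 0.0630) or luminal replicate 1 (-3.08, adjusted p = 0.0569). All 17 members called higher in WT basal cells were called the same way in DN-Clim cells. The WT median was 5.97, and the differences between genotypes had a median of -0.70 over the list, with none called. Trp63, the gene of the basal master regulator p63, is named after its values were seen, and it read 2328 and 2378 in DN-Clim basal cells and 244 and 73.2 in DN-Clim luminal cells (4.14, SE 0.48, adjusted p = 0.00117). WT luminal cells read 21.4 and 20.9 for Trp63, and the difference between genotypes was -2.61 (adjusted p = 0.627).

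Basal cells rest on the basement membrane and build much of it. Of 21 measured genes of basement membrane and hemidesmosomes 15 were called higher in DN-Clim basal cells, 0 higher in luminal cells and 6 were not called (median 1.25). Col17a1, the transmembrane collagen of hemidesmosomes, read 3209 and 3776 against 34.5 and 40.8 (6.54, SE 0.31, adjusted p = 4.83e-05). Col4a1 and Col4a2, the chains of type IV collagen, differed by 5.03 (SE 0.53, adjusted p = 0.000764) and 4.90 (SE 0.55, adjusted p = 0.00102). The smallest difference belonged to Fermt1, the kindlin that links integrins to the actin cytoskeleton in epithelia. Fermt1 read 1584 and 1525 in DN-Clim basal cells and 1256 and 1677 in DN-Clim luminal cells, overlapping groups with a difference of 0.10 (adjusted p = 0.74, 95% interval -0.35 to 0.55). In WT cells it read 1855 and 1881 against 559 and 438, a difference of 1.92 (adjusted p = 0.000471). The difference between genotypes for Fermt1, -1.82 (95% interval -2.45 to -1.18), did not pass correction over all genes (adjusted p = 0.215).

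**Figure D2:**
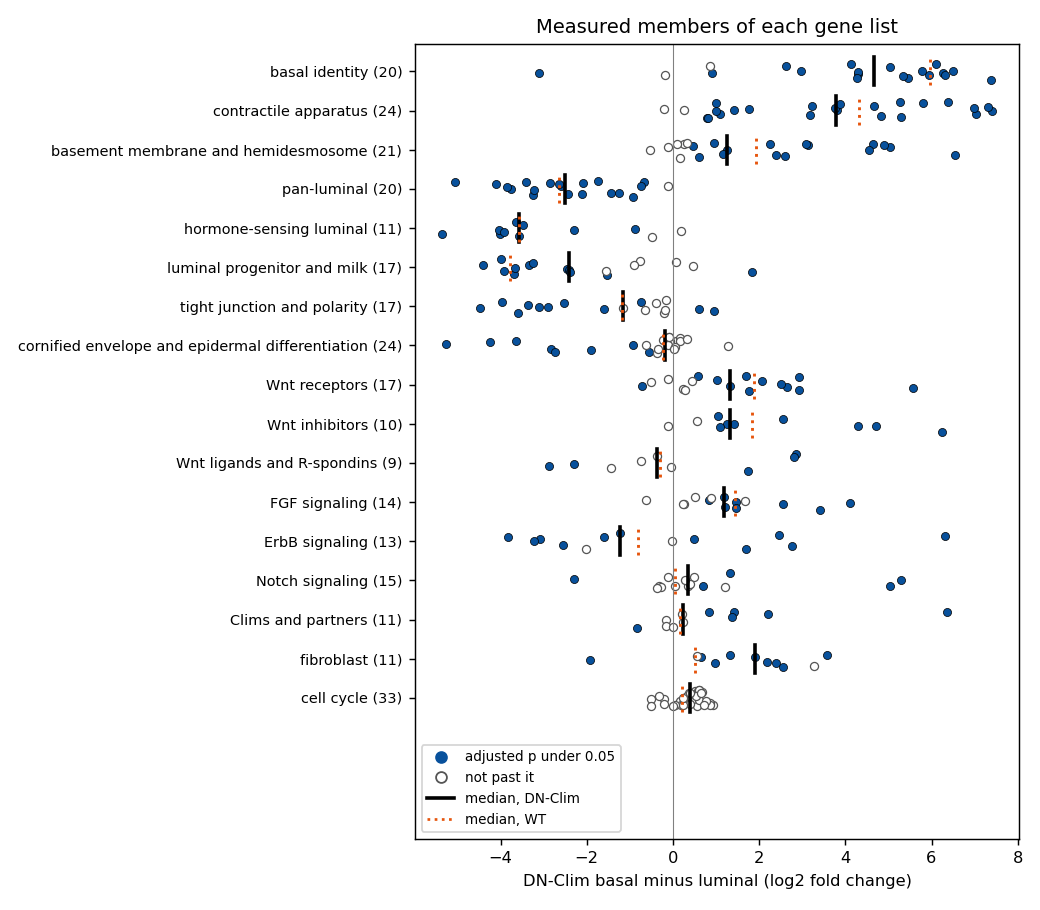
Basal minus luminal difference (log2) in DN-Clim cells for every measured member of 17 gene lists: filled points were called at an adjusted p under 0.05, the black bar is the median of a list in DN-Clim and the dotted orange bar its median in WT cells. Contractile and basal identity genes lie on the basal side and pan-luminal and hormone-sensing genes on the luminal side, with medians of both genotypes on the same side.

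On the luminal side, 19 of 20 measured pan-luminal genes were called higher in DN-Clim luminal cells and 1 was not called (median -2.52). Krt7, a simple keratin, read 734 and 198 in basal and 6265 and 6960.1 in luminal cells (-4.11, SE 0.54, adjusted p = 0.00191). Cldn7, a claudin, read 219 and 14.8 against 1714 and 2093 (-5.06, SE 1.06, adjusted p = 0.0121). Ehf, an epithelial ETS factor, read 346 and 38.7 against 1526 and 1809 (-3.84, SE 0.87, adjusted p = 0.0162). In each of these the first DN-Clim basal array was several-fold above the second, and both stayed below the luminal arrays. Cldn7 lost its call without luminal replicate 1 (adjusted p = 0.0553) or 2 (0.0502), and Ehf likewise (0.0676 and 0.0626). Gata3, the luminal fate factor, read 1629 and 1421 against 3398 and 2440.4 (-0.92, SE 0.21, adjusted p = 0.0169), and lost its call without DN-Clim basal replicate 1 (adjusted p = 0.0559), basal replicate 2 (0.0913) or luminal replicate 1 (0.0908). Grhl2, a grainyhead factor of epithelia, had the smallest difference, -0.11 (adjusted p = 0.721, 95% interval -0.56 to 0.35). The WT median of the list was -2.64, and the same 19 genes were called the same way in both genotypes.

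The receptors through which luminal cells sense ovarian hormones stayed luminal. Esr1, the estrogen receptor, read 254 and 102 in DN-Clim basal and 2133 and 1704 in DN-Clim luminal cells (-3.57, SE 0.39, adjusted p = 0.000853). Pgr, the progesterone receptor, read 331 and 183 against 4178 and 2297 (-3.65, SE 0.35, adjusted p = 0.000556). Foxa1, the pioneer factor that opens chromatin for the estrogen receptor, read 187 and 27.8 against 3289.6 and 2614 (-5.35, SE 0.79, adjusted p = 0.003). No basal array reached a luminal array at any of the 3. Of the 11 hormone-sensing genes measured 9 were called higher in luminal cells, 0 higher in basal cells and 2 were not called, and the median of -3.57 stood beside -3.58 in WT cells. Prom1, a surface marker of hormone-sensing cells, differed by -4.03 (SE 0.66, adjusted p = 0.00461). Greb1, an estrogen receptor target, read 70.1 and 39.3 against 1067 and 671 (-4.01, SE 1.23, adjusted p = 0.0467), but its WT luminal arrays read 289 and 13.7. Greb1 lost its call under 8 of the alternatives, with adjusted p between 0.0515 and 0.186. Tnfsf11 (RANKL), the paracrine mediator of progesterone, had the smallest difference, 0.20 (adjusted p = 0.916), at 331 and 386 against 303 and 321. Its WT luminal replicates read 4929 and 294, so these replicates were far apart.

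Luminal progenitor and milk genes were less even. Of 17 measured 11 were called higher in DN-Clim luminal cells, 1 higher in basal cells and 5 were not called (median -2.42, beside -3.78 in WT cells). The 11 became 3 without DN-Clim luminal replicate 1, 4 without luminal replicate 2 and 7 without basal replicate 2. Ltf, lactoferrin, read 199 and 28.2 in basal and 1799.9 and 1403 in luminal cells (-4.40, SE 0.82, adjusted p = 0.00763). Folr1, a folate receptor, read 57.3 and 13.4 against 399.9 and 441 (-3.92, SE 0.65, adjusted p = 0.00505). Btn1a1, butyrophilin of the milk fat globule, read 138 and 8.11 against 684 and 410.1 (-3.99, SE 1.19, adjusted p = 0.0429), and its call was lost under 10 alternatives, with adjusted p up to 0.178. Mfge8, another milk fat globule protein, was near equal at 0.08 (adjusted p = 0.704, 95% interval -0.25 to 0.41). The member called higher in basal cells was Itgb3, the integrin known as CD61 and named after its values were seen, at 326 and 364 against 78.4 and 118 (1.84, SE 0.29, adjusted p = 0.00401), and WT cells had it higher in basal cells too (2.09). The list's summed intensity in DN-Clim basal cells was 30100 in replicate 1 and 20100 in replicate 2.

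Among genes of tight junctions and polarity, which seal the luminal layer, 9 of 17 measured were called higher in DN-Clim luminal cells, 2 higher in basal cells and 6 were not called (median -1.17, beside -1.18 in WT cells). For all genes tested the shares were 17.1% on the luminal and 13.1% on the basal side. The 2 on the basal side, Pard3 and Magi1, are named after their values were seen and became 0 without DN-Clim basal replicate 2 or luminal replicate 1 and 1 without basal replicate 1 or luminal replicate 2. Cldn8 read 127 and 49.5 against 1921 and 1604 (-4.47, SE 0.54, adjusted p = 0.00134). Ocln, occludin, differed by -3.97 (SE 0.48, adjusted p = 0.00139) and the scaffold gene Tjp3 by -3.59 (SE 0.38, adjusted p = 0.000824). F11r, the junctional adhesion molecule A, did not pass the test at -0.15 (adjusted p = 0.561, 95% interval -0.57 to 0.26).

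Signals that pass between the layers were divided between them. For the Wnt pathway, 3 of 9 measured ligands and R-spondins were called higher in DN-Clim basal cells and 2 higher in luminal cells. Over all genes tested 13.1% were called on the basal and 17.1% on the luminal side. Wnt10a read 742 and 723 in basal and 121 and 85.8 in luminal cells (2.85, SE 0.31, adjusted p = 0.000904), and Wnt11 read 784 and 613 against 95.1 and 102 (2.82, SE 0.28, adjusted p = 0.000645). Wnt7b read 74.8 and 50.5 against 499 and 409 (-2.88, SE 0.30, adjusted p = 0.000785). The other ligand on the luminal side, Wnt4, the ligand that acts downstream of progesterone, is named after its values were seen and differed by -2.31 (SE 0.23, adjusted p = 0.000655). Wnt10b did not pass the test at -0.05 (adjusted p = 0.855, 95% interval -0.49 to 0.38). All 5 ligands called were called the same way in WT cells.

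Most Wnt receptors were on the basal side, 11 of 17 called higher in basal cells, 1 higher in luminal cells and 5 not called (median 1.33, beside 1.87 in WT cells). The 1 luminal call, that of Fzd4, named after its values were seen, ended without either DN-Clim basal replicate or luminal replicate 1. Lgr5, the R-spondin receptor of stem cells, read 1919 and 745 in DN-Clim basal and 31.3 and 20.2 in luminal cells (5.57, SE 0.66, adjusted p = 0.00128). WT basal cells read 3329 and 3649 for Lgr5, above both DN-Clim basal arrays, while the lineage difference itself was alike in size at 5.54, with a difference between genotypes of 0.04 and a 95% interval from -2.19 to 2.26. Ror1, a receptor for noncanonical Wnts, differed by 2.92 (SE 0.25, adjusted p = 0.00035) and the frizzled receptor Fzd3 by 2.91 (SE 0.23, adjusted p = 0.000285). Fzd6 did not pass the test at -0.13 (adjusted p = 0.653, 95% interval -0.55 to 0.30). The summed intensity of the 17 receptors was 17300 and 17700 in DN-Clim basal cells, 26000 and 25400 in WT basal cells, and between 7990 and 9580 in the luminal arrays of both genotypes.

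Of 10 measured secreted Wnt inhibitors 8 were called higher in DN-Clim basal cells, 0 higher in luminal cells and 2 were not called (median 1.33), and without DN-Clim basal replicate 2 the count was 5. Sostdc1 (ectodin) read 1953 and 3275 against 19 and 58.6 (6.24, SE 0.53, adjusted p = 0.000348). Sfrp1, a soluble frizzled decoy, read 1165 and 798 against 30.8 and 44.5 (4.70, SE 0.24, adjusted p = 5.88e-05). Dkk3, of the Dickkopf family, read 1499.7 and 1443 against 117 and 48.5 (4.29, SE 0.41, adjusted p = 0.000519). Dkk1 did not pass the test at -0.11 (adjusted p = 0.586, 95% interval -0.43 to 0.21). Inside the cell, 3 of 10 nuclear factors and targets were called higher in basal cells, where 13.1% of all genes were called, and 7 were not called. The 3 were Nkd1 at 5.10 (SE 0.18, adjusted p = 3.36e-05), Nkd2 at 4.61 (SE 0.70, adjusted p = 0.00347), both feedback inhibitors, and the repressor Tcf7l1 at 2.52 (SE 0.28, adjusted p = 0.000968). Bcl9, a co-activator, did not pass the test at -0.05 (adjusted p = 0.81, 95% interval -0.38 to 0.28).

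FGF signaling genes leaned to the basal side, where 13.1% of all genes were called. Of 14 measured 8 were called higher in DN-Clim basal cells, 0 higher in luminal cells and 6 were not called (median 1.20). The count was 4 without DN-Clim luminal replicate 1 and 5 without either basal replicate. The ligand Fgf2 read 353 and 223 against 12.3 and 21.2 (4.12, SE 0.38, adjusted p = 0.000459), and Fgf1 read 1635 and 1338 against 106 and 179 (3.42, SE 0.27, adjusted p = 0.000262). Etv5, an ETS factor induced by FGF, differed by 2.55 (SE 0.51, adjusted p = 0.0101), and lost its call without DN-Clim basal replicate 2 (adjusted p = 0.0646) or luminal replicate 1 (0.0627). Fgf18 did not pass the test at 0.23 (adjusted p = 0.326, 95% interval -0.15 to 0.61). The receptor Fgfr2 read 1798 and 2021 in DN-Clim basal and 3557 and 2401 in DN-Clim luminal cells. Its groups did not overlap, but the difference of -0.62 was within the error (SE 0.33, adjusted p = 0.205, 95% interval -1.39 to 0.16), and WT cells gave -0.69 (adjusted p = 0.153).

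The ErbB pathway was split between the layers. The neuregulin gene Nrg1 was basal, as given above, while the receptors that bind or relay its signal were luminal. Erbb2 read 379 and 443 in DN-Clim basal and 1394 and 1104 in luminal cells (-1.60, SE 0.17, adjusted p = 0.000791), and Erbb3 read 369.6 and 293 against 3178 and 2478 (-3.09, SE 0.19, adjusted p = 0.000104). WT luminal cells read higher than both DN-Clim luminal arrays for each, 2359 and 2157 for Erbb2 and 4660.4 and 4006 for Erbb3. The lineage difference was nearer to 0 in DN-Clim cells by 0.55 for Erbb2 (95% interval -0.02 to 1.12) and by 0.88 for Erbb3 (95% interval 0.24 to 1.52), and neither passed correction over all genes (adjusted p of 1.00 and 0.797). The EGFR ligands Btc (betacellulin) and Epgn (epigen) were higher in DN-Clim luminal cells, at -3.82 (SE 0.35, adjusted p = 0.000459) and -3.23 (SE 0.57, adjusted p = 0.00653). Tgfa did not pass the test at -0.03 (adjusted p = 0.907, 95% interval -0.38 to 0.32). In all, 5 of 13 measured members were called higher in basal cells, 6 higher in luminal cells and 2 were not called, and 10 were called the same way in WT cells. The shares over all genes were 13.1% basal and 17.1% luminal, with 24.6% called the same way in both genotypes.

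Of 15 measured Notch signaling genes 4 were called higher in basal cells, 1 higher in luminal cells and 10 were not called, where 30.2% of all genes were called, 13.1% on the basal side. Without DN-Clim luminal replicate 1 the counts were 3 and 2. Dll1, a ligand, read 831 and 994 in DN-Clim basal and 18.7 and 29 in luminal cells (5.29, SE 0.28, adjusted p = 6.5e-05), and the ligand Jag2 read 1747 and 2173 against 49.5 and 71 (5.04, SE 0.34, adjusted p = 0.000147). Notch3, a receptor, read 218 and 207 against 988 and 1087 (-2.29, SE 0.17, adjusted p = 0.00019). Rfng, a fringe glycosyltransferase, did not pass the test at 0.04 (adjusted p = 0.895).

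The Clims themselves and the LIM factors they bind were measured with the rest. Over all genes tested 13.1% were called on the basal and 17.1% on the luminal side. Ldb1 (Clim2) read 2339 and 2407 in DN-Clim basal and 2689 and 2628 in DN-Clim luminal cells (-0.16, adjusted p = 0.55, 95% interval -0.59 to 0.27). No source used here says where its probes lie relative to the LIM-interacting domain, so the probe set is no check of the transgene. Ldb2 (Clim1) read 449 and 309 against 97.5 and 198 (1.42, SE 0.38, adjusted p = 0.0298), and this call was lost with replicates as a block (adjusted p = 0.0504), with DN-Clim fitted alone (0.0545) and without DN-Clim basal replicate 1 (0.163), basal replicate 2 (0.0603) or luminal replicate 1 (0.136). Lmo4, a LIM-only partner of Clims, read 2037 and 1963 against 622 and 959 (1.37, SE 0.21, adjusted p = 0.00353), and Lmo1 read 978 and 1224 against 7.88 and 22.6 (6.36, SE 0.48, adjusted p = 0.000212). Ssbp2, which stabilizes Clims, differed by 2.21 (SE 0.36, adjusted p = 0.00443). Lmx1b, a LIM-homeodomain factor, did not pass the test at 0.01 (adjusted p = 0.98). Of 11 measured 5 were called higher in basal cells, 1 higher in luminal cells and 5 were not called, and without DN-Clim basal replicate 2 the 5 became 3. The luminal call, that of Ssbp4, named after its values were seen, ended without any 1 of the DN-Clim arrays. The differences between genotypes were -0.05 for Lmo4 (95% interval -0.75 to 0.66) and -0.26 for Lmo1 (95% interval -1.85 to 1.33).

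Factors of mammary stem cells were mostly basal as well, beside shares of 13.1% basal and 17.1% luminal calls over all genes. Of 16 measured 9 were called higher in DN-Clim basal cells, 2 higher in luminal cells and 5 were not called (median 1.18). The 2 were Tspan8 and Sox9, the second also named after its values were seen. The luminal calls became 1 without DN-Clim basal replicate 2 or luminal replicate 1. Snai2 (Slug) read 1512 and 1506 against 17.3 and 35.2 (5.93, SE 0.38, adjusted p = 0.000127), and Id4 read 4850.4 and 6838 against 90.6 and 122 (5.78, SE 0.23, adjusted p = 3.49e-05). WT lineage differences were larger for both, 7.20 for Snai2 and 7.06 for Id4, but the differences between genotypes of -1.27 and -1.29 did not pass correction (adjusted p of 1.00 and 0.617). Inpp5d (SHIP), a phosphatase, did not pass the test at 0.16 (adjusted p = 0.618).

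To ask how much of the WT lineage difference was present under DN-Clim, calls of both genotypes were set side by side. They come from separate arrays. In WT cells 4217 genes (33.8%) were called, 1934 higher in basal (15.5%) and 2283 higher in luminal cells (18.3%). Of the 1934 WT basal genes 1426 (73.7%) were called the same way in DN-Clim cells and 1911 had the same sign, and of the 2283 WT luminal genes 1642 (71.9%) were called the same way and 2269 had the same sign. Taken from the other side, these were 87.2% of the DN-Clim basal calls and 77.1% of the DN-Clim luminal calls. Together 3068 genes (24.6% of all tested) were called the same way in both genotypes. Without DN-Clim luminal replicate 1 the count was 1927, without basal replicate 1 it was 1959 and without basal replicate 2 it was 1947. WT basal genes had a median difference of 1.55 in WT and 1.27 in DN-Clim cells, and WT luminal genes -1.02 and -0.88. Genes chosen by their WT call favour the larger WT value, and the reverse choice gave 1.63 in DN-Clim and 1.72 in WT cells for the DN-Clim basal genes and -1.01 and -0.95 for the DN-Clim luminal genes.

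The share called again grew with the size of the WT difference. It was 42 of 94 genes (44.7%) below 0.5 log2 units, 845 of 1536 (55.0%) from 0.5 to 1, 1073 of 1396 (76.9%) from 1 to 2, 723 of 795 (90.9%) from 2 to 4 and 385 of 396 (97.2%) at 4 or more. Among the genes with the largest WT differences that were not called in DN-Clim cells, Cacnb4, a calcium channel subunit, read 601 and 2491 in WT basal but 87.1 and 74.3 in DN-Clim basal cells, with 49.9 and 49.4 in DN-Clim luminal cells. Lrrn1, a leucine-rich repeat membrane protein, read 827 and 307 in WT basal and 44.7 and 113 in DN-Clim basal cells. Both DN-Clim basal arrays lay below both WT basal arrays for these genes, which their choice by a call in WT and none in DN-Clim cells favours. The difference between genotypes did not pass correction (adjusted p of 0.506 for Cacnb4 and 0.646 for Lrrn1). Gucy1b1, a guanylate cyclase subunit, missed the threshold in DN-Clim cells at 3.23 (adjusted p = 0.0584). On the luminal side the 5 largest were Muc16, Ly6d, Col8a1, Gjb2 and Cck, with WT differences between -4.16 and -6.03 and DN-Clim differences between -0.69 and -3.48. Col8a1, a short-chain collagen, read 445 and 363 in DN-Clim basal but 94.9 and 75.6 in WT basal cells, and its difference between genotypes was 3.91 (adjusted p = 0.517).

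A pair of genes was called in opposite directions in the 2 genotypes, and both are named after their values were seen. Thsd7a, a thrombospondin-repeat protein, read 112 and 71.3 in DN-Clim basal and 179 and 282 in DN-Clim luminal cells (-1.33, SE 0.30, adjusted p = 0.0155, but 0.0758 without DN-Clim basal replicate 2 and 0.0717 without luminal replicate 2), where WT cells read 269.9 and 288 against 58.6 and 64 (2.19). Itprid1 differed by -0.69 in DN-Clim (adjusted p = 0.0449) and by 0.78 in WT cells, and its DN-Clim call ended without any 1 of the DN-Clim arrays (adjusted p between 0.0750 and 0.198) and with the replicate block (0.0754). The differences between genotypes were -3.51 for Thsd7a (adjusted p = 0.0929) and -1.48 for Itprid1 (adjusted p = 0.421), so neither passed that test.

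**Figure D3:**
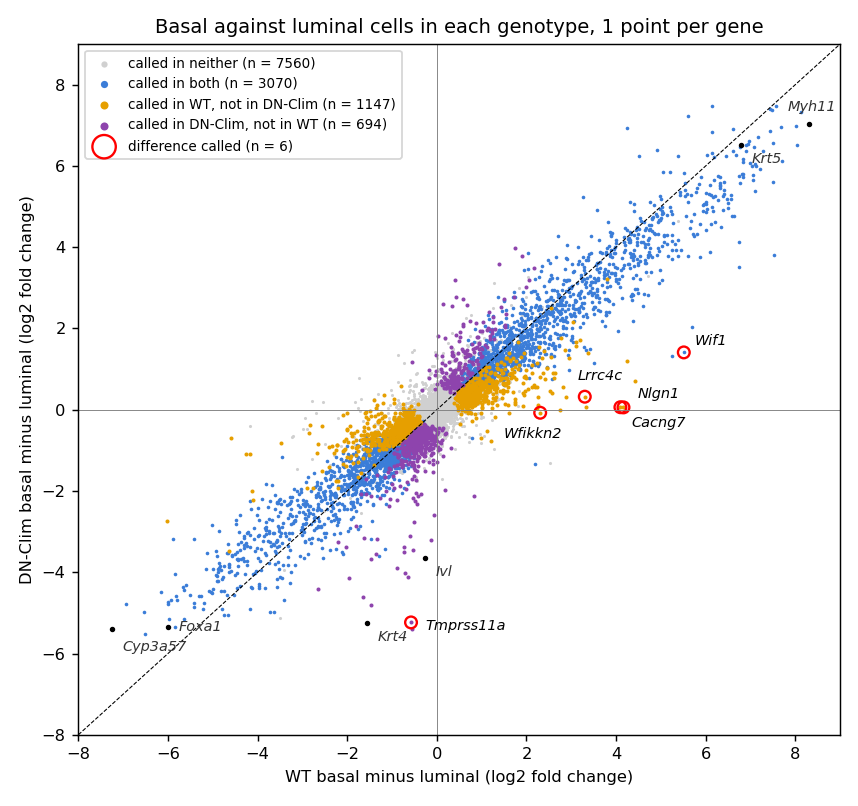
Basal minus luminal difference (log2) of each of the 12471 genes in WT cells (x axis) and in DN-Clim cells (y axis), coloured by the comparison in which a gene was called. The cloud follows the diagonal, and the 6 genes called for a difference between the genotypes lie below it.

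The test of the lineage difference itself between genotypes called 6 of 12471 genes (0.0481%), where 607 (4.87%) had an unadjusted p under 0.05. For all 6 the basal minus luminal difference was lower in DN-Clim than in WT cells, and no gene was called with a higher one. This direction depended on the WT luminal arrays. Without WT luminal replicate 1, Col8a1 and Htr4 were called with a higher difference in DN-Clim cells. Without WT luminal replicate 2, Cd33, Hsd11b2, Sftpd and Tnfsf11 were. In 5 of them a gene that WT basal cells expressed well above WT luminal cells read near the luminal level in DN-Clim basal cells. Cacng7, an auxiliary subunit of AMPA receptors and calcium channels, read 1806 and 2179 in WT basal, 110.3 and 122 in WT luminal, 137 and 145 in DN-Clim basal and 119.8 and 152 in DN-Clim luminal cells. All 4 DN-Clim arrays were near the WT luminal level, and the difference between genotypes was -4.04 (SE 0.25, adjusted p = 0.0108). Wif1, a secreted inhibitor that binds Wnt ligands, read 2545 and 3906 in WT basal and 64.5 and 74.1 in WT luminal cells. In DN-Clim cells it read 194 and 244 in basal and 84.1 and 79.7 in luminal arrays, so it was still higher in basal cells (1.41, SE 0.23, adjusted p = 0.0049), and the difference between genotypes was -4.10 (SE 0.33, adjusted p = 0.0312).

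Wfikkn2, a secreted protease inhibitor that binds growth differentiation factors, read 733 and 874 in WT basal, 163 and 160.3 in WT luminal, 193 and 193 in DN-Clim basal and 190.4 and 218 in DN-Clim luminal cells (-2.38, SE 0.21, adjusted p = 0.0421). Nlgn1, a neuroligin of synapses, read 1159 and 681 in WT basal and between 46 and 63.4 on the other 6 arrays (-4.11, SE 0.41, adjusted p = 0.0421). Lrrc4c, a ligand of netrin-G and so a synaptic adhesion protein like Nlgn1, read 505 and 442 in WT basal and between 46.9 and 70.4 on the others (-2.98, SE 0.29, adjusted p = 0.0421). Both WT basal arrays stood above the 6 others for Nlgn1 and Lrrc4c, which their choice by this test favours. The sixth gene, Tmprss11a, a transmembrane serine protease of squamous epithelia, differed in luminal cells instead: it read 958 and 1667 in DN-Clim luminal cells, 45.1 and 38 in WT luminal cells and between 25.8 and 36.5 in the 4 basal arrays (-4.66, SE 0.46, adjusted p = 0.0421). With the replicate number as a block only Cacng7 passed (adjusted p = 0.0493), while Wif1 was at 0.0722, Nlgn1 and Tmprss11a at 0.144, Wfikkn2 at 0.149 and Lrrc4c at 0.207. None of the 6 kept its call without WT basal replicate 2, DN-Clim basal replicate 1 or DN-Clim basal replicate 2. In the other fits that left out 1 array Cacng7 kept its call, and Wif1 did only without WT basal replicate 1. Wfikkn2, Nlgn1, Lrrc4c and Tmprss11a lost theirs in every fit that left out 1 array. Other genes were called in some of these fits, such as Ivl without DN-Clim luminal replicate 1 and Trp63 without luminal replicate 2.

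**Figure D4:**
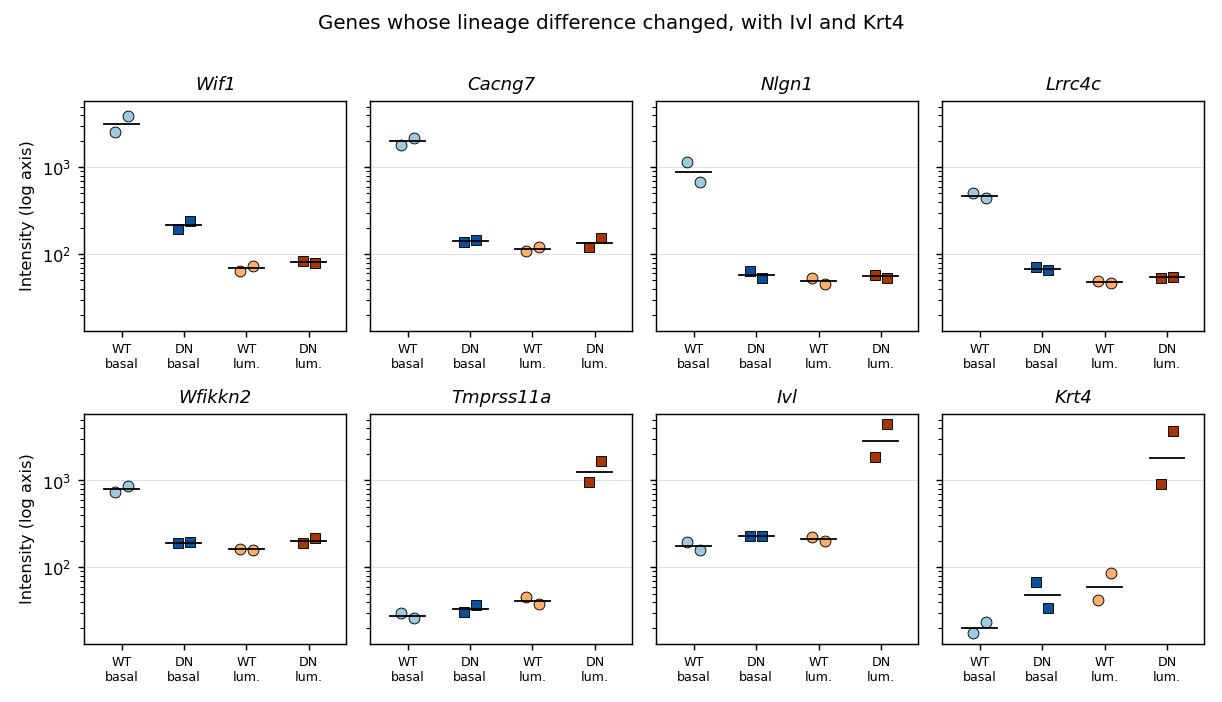
Intensity (log scale) on each sorted array of the 6 genes called for a difference between genotypes (Wif1, Cacng7, Nlgn1, Lrrc4c, Wfikkn2 and Tmprss11a) and of Ivl and Krt4, which were not; points are arrays and the black line is the geometric mean of the 2 arrays of a group. WT basal arrays stand alone at the first 5 genes, and DN-Clim luminal arrays stand alone at Tmprss11a, Ivl and Krt4.

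Of the genes called higher in DN-Clim luminal cells 485 were not called in WT cells. Among those of largest difference were Krt4 and Lce6a, genes of stratified or cornifying epithelium. Krt4, a keratin of internal squamous epithelia, read 909 and 3711 in DN-Clim luminal and 67.1 and 34.4 in DN-Clim basal cells (-5.26, SE 0.70, adjusted p = 0.00197), against 41.8 and 86.1 in WT luminal cells. Padi4, a peptidylarginine deiminase, read 2659 and 3137 in DN-Clim luminal and 102 and 291 in WT luminal cells, and Lce6a, of the late cornified envelope family, read 1465 and 1019.9 against 28.6 and 78.9. Gm4847, a gene model, read 466 and 1957 against 40.6 and 29.6. For all of these both DN-Clim luminal arrays lay above both WT luminal arrays. Choosing genes by a call in DN-Clim and none in WT cells favours such a separation, and its share over all genes was not counted. The differences between genotypes did not pass correction, with adjusted p of 0.643 for Krt4, 0.506 for Padi4, 0.763 for Lce6a and 0.345 for Gm4847. On the basal side the 5 largest of this kind were Dsg3, Ptprz1, Lum, Efhd1 and Cd36, between 3.18 and 3.97. Dsg3, the desmoglein of basal keratinocytes, read 126 and 311 in DN-Clim basal and 45.3 and 58.1 in WT basal cells, with a DN-Clim lineage difference of 3.97 (SE 0.60, adjusted p = 0.00328). Lum and Cd36 belong to stromal and fat cells and are taken up with those lists. Ptprz1 lost its call without DN-Clim basal replicate 1 (adjusted p = 0.106) or luminal replicate 1 (0.0912), and Efhd1 without either basal replicate (0.0518 and 0.0593) or luminal replicate 1 (0.0526).

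Over the whole list of cornified envelope and epidermal differentiation genes, 24 of 33 passed the filter. In WT cells 7 of the 24 were called higher in luminal and 2 higher in basal cells, and 6 were called the same way in both genotypes. Of all genes tested 30.2% were called in DN-Clim cells, 17.1% on the luminal side. Of the list, 8 were called higher in DN-Clim luminal cells, 0 higher in basal cells (1 with the replicate block or with each genotype fitted alone) and 16 were not called. The median was -0.18, beside -0.22 in WT cells, and without DN-Clim basal replicate 2 or luminal replicate 2 the count was 5. Ivl, involucrin, read 1865 and 4419 in DN-Clim luminal cells, 229.5 and 231 in DN-Clim basal cells and between 159.6 and 224 in the 4 WT arrays (-3.64, SE 0.37, adjusted p = 0.000635). Its difference between genotypes was -3.38 (adjusted p = 0.24). Krt6a, a keratin of stressed and suprabasal epidermis, read 726 and 4833 against 111 and 87 in DN-Clim cells (-4.25, SE 0.80, adjusted p = 0.00797) and lost its call without basal replicate 2 (adjusted p = 0.0512). Cdsn, corneodesmosin, did not pass the test at 0.03 (adjusted p = 0.914, 95% interval -0.36 to 0.42). Sprr1a, a small proline-rich envelope precursor named after its values were seen, was high in WT luminal cells too, at 2307 and 3802, beside 12229.8 and 12040.4 in DN-Clim luminal, 4122 and 705 in DN-Clim basal and 106 and 78 in WT basal cells. Its DN-Clim difference was -2.83 (SE 0.73, adjusted p = 0.0256), and the call ended without luminal replicate 1 (adjusted p = 0.105) or 2 (0.0805) and with DN-Clim fitted alone (0.0590). The list summed to 30200 and 41300 in DN-Clim luminal cells, 18000 and 14500 in DN-Clim basal cells, 14200 and 16700 in WT luminal cells and 13200 and 13400 in WT basal cells, so both DN-Clim luminal arrays lay above all others. Genes of high intensity, such as Sprr1a, weigh most in these sums. The differences between genotypes had a median of -0.09 over the list, beside -0.02 over all genes. They were negative for 16 of the 24, beside 6571 of all 12471 genes.

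Markers of other cell types were read beside the lineages, and none of the fibroblast, adipocyte, pericyte, endothelial or macrophage genes was called for a difference between genotypes. That test called only 6 of all 12471 genes, so the absence of a call says little. Its unadjusted p in limma was under 0.05 for 2 of 11 fibroblast, 2 of 6 adipocyte and 1 of 10 endothelial genes. The same held for 0 of 3 pericyte and 0 of 5 macrophage genes, and for 4.87% of all genes. Of 11 measured fibroblast genes 8 were called higher in DN-Clim basal cells, 1 higher in luminal cells and 2 were not called (median 1.91), where 3 were called higher in WT basal cells (median 0.52). The 8 became 1 without DN-Clim basal replicate 1, 4 without basal replicate 2 or luminal replicate 1 or with each genotype fitted alone, and 4 or 5 without a WT array. Their sum was 10500 and 7720 in DN-Clim basal, 6340 and 4760 in DN-Clim luminal, 5430 and 7660 in WT basal and 2260 and 1830 in WT luminal cells. Lum, lumican, read 679 and 359.9 in DN-Clim basal and 17.9 and 94.7 in luminal cells (3.58, SE 0.74, adjusted p = 0.0114), with 64 and 48.8 in WT basal cells, and Mfap5 differed by 2.56 (SE 0.53, adjusted p = 0.0114). Both lost their call without basal replicate 1 (adjusted p = 0.0837 for Lum and 0.0754 for Mfap5). Dpt, dermatopontin, missed the threshold at 3.26 (adjusted p = 0.0638), and Dcn, decorin, was at 0.56 (adjusted p = 0.474).

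Adipocyte genes gave 3 calls on the basal and 1 on the luminal side of 6 measured, the 3 becoming 1 without DN-Clim basal replicate 1 or with each genotype fitted alone and 0 without basal replicate 2 or luminal replicate 1, and Adipoq, which defines the type, lay between 44.2 and 58.4 on all 8 arrays, below the filter. Fabp4 read 1492 and 1198 in DN-Clim basal and 64.2 and 427 in luminal cells (3.01, SE 0.82, adjusted p = 0.0314), and Cd36, a fatty acid transporter also found on capillary endothelium, read 1832 and 1272 against 66.6 and 423 (3.18, SE 0.81, adjusted p = 0.0253). Without DN-Clim luminal replicate 1 these were 1.65 (adjusted p = 0.0733) and 1.85 (adjusted p = 0.0621), and leaving out either basal replicate ended both calls too (adjusted p between 0.0795 and 0.14), as did leaving out either WT basal array for Fabp4 (0.0529). Lipe, hormone-sensitive lipase, was higher in luminal cells at -1.62 (SE 0.23, adjusted p = 0.00252) and equally in WT cells (-1.94). Of 10 endothelial genes 2 were called higher in basal cells, where 13.1% of all genes were called, and 8 were not called. Their sum was 4510 and 2830 in DN-Clim basal, 1030 and 2330 in DN-Clim luminal and between 1330 and 2530 in WT cells, although CD31-positive cells were sorted out. Cdh5, VE-cadherin, read 1084 and 617 against 64.7 and 407 (2.33, adjusted p = 0.085). The endothelial count was 1 with the replicate block, 6 without DN-Clim luminal replicate 2, 1 without basal replicate 2 and 0 without basal replicate 1 or luminal replicate 1. All 3 pericyte genes were called higher in basal cells of both genotypes, though Des lost its DN-Clim call without basal replicate 2 (adjusted p = 0.0516) or luminal replicate 1 (0.0525) and Rgs5 without basal replicate 1 (0.0525). Of 5 macrophage genes 0 were called by limma (2 without DN-Clim luminal replicate 2), with sums of 1680 and 1470 in DN-Clim basal and 662 and 1560 in DN-Clim luminal cells. DN-Clim luminal replicate 2 was above replicate 1 for the endothelial, pericyte and macrophage sums. The part of these cells in the lineage differences was not tested.

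None of the 33 cell cycle genes was called by limma in either genotype. In DN-Clim cells 28 of the 33 were higher in basal cells, beside 5299 of all 12471 genes, with a median difference of 0.39, and 2 were called higher in basal cells without DN-Clim luminal replicate 2. Here the replicates stood further apart than the lineages. The summed intensity was 14000 in DN-Clim basal replicate 1 and 29700 in replicate 2, and 8300 in luminal replicate 1 and 30600 in replicate 2. WT arrays lay between 12600 and 19000.

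**Figure D5:**
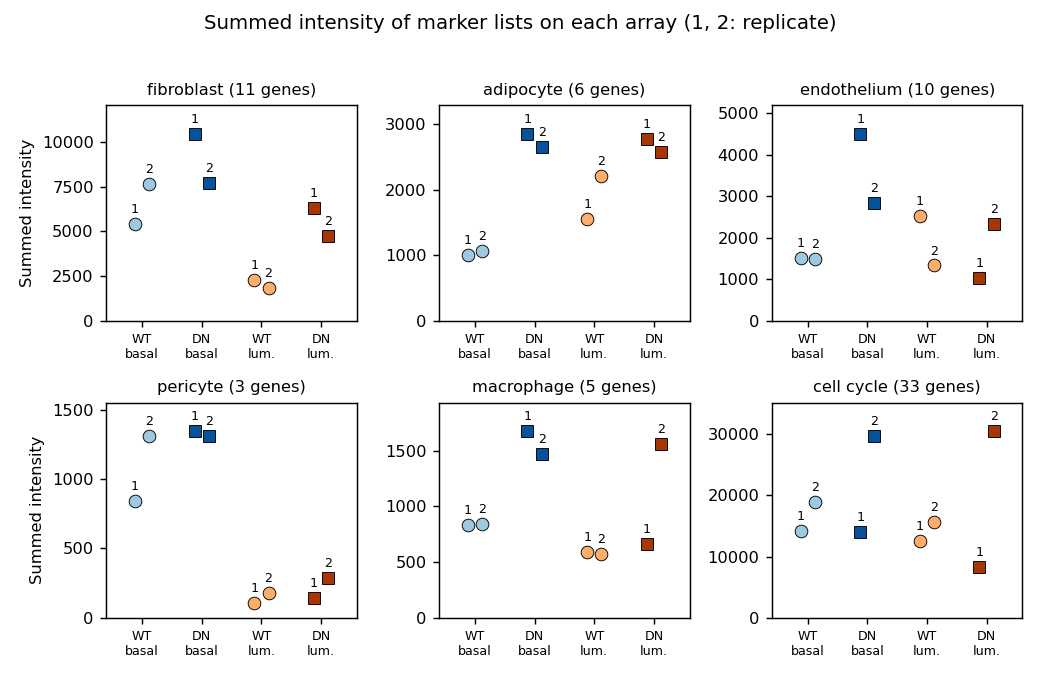
Summed intensity per sorted array of the measured members of 6 gene lists (fibroblast, adipocyte, endothelium, pericyte, macrophage and cell cycle); each point is 1 array, its replicate number is beside it, and shape and colour give genotype and cell type. Fibroblast sums reach 10500 in DN-Clim basal replicate 1, and the cell cycle sums of the DN-Clim replicates differ more within a cell type than between cell types.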

How the data were processed

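RNA of sorted cells was hybridised to Affymetrix mouse gene arrays, 1 array per sample. The deposited values are probe set intensities on a linear scale, which the authors summarised with PLIER; no source used here gives its version, how background was corrected or whether arrays were normalized to each other, so a shift common to an array would enter every difference. Groups were taken from the sample labels. Of 35557 probe sets 21789 carried 1 gene symbol in the platform annotation, 1621 several and 12147 none, and genes were named only from those with 1. Intensities under 1 were set to 1 before log2, probe sets under 150 on all 8 sorted arrays were left out (19534 stayed), and the probe set of highest mean stood for a gene. limma 3.58.1 in R 4.3.3 (lmFit, eBayes with a variance trend, 4 residual degrees of freedom) fitted the 8 arrays together, with contrasts for the lineages in each genotype and for the difference between them, and Benjamini-Hochberg adjustment over 12471 genes. The scripts were tested on simulated data. The number of arrays, 2 in each group, limits the precision.

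Members and gene lists were chosen with earlier results of these data known. Examples of a list are its 3 members of largest and 1 of smallest absolute DN-Clim difference, beside the genes called for the genotype difference, the 10 largest differences on each side, the 5 largest on each side called in 1 genotype only, and the markers the study names. Genes outside this rule are said to be named after their values were seen. The alternatives were quantile normalization, a common mean and variance, no filter or one at 500, an offset of 16, each genotype alone, no variance trend, the mean of all probe sets, Cyber-T with its window of 101, the replicate number as a block, an unadjusted threshold and leaving out each array. Same-numbered basal and luminal arrays deviated together (r = 0.221 in DN-Clim and 0.289 in WT over genes; with 2 arrays a group the deviations mirror each other). The methods give 2 animals of each genotype, which makes it likely but does not state that a number marks an animal, so the fit without the block was kept. The RefSeq promoter table had an entry for 20 of the 25 contractile genes.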

Additional observations from a re-analysis of the deposited data

Results flagged for a closer look

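The basal minus luminal difference of 6 genes differed between genotypes by the limma test of that difference itself. The DN-Clim value less the WT value, in log2 units, was -4.03501 for Cacng7, -4.10084 for Wif1, -2.38092 for Wfikkn2, -2.9808 for Lrrc4c, -4.6584 for Tmprss11a and -4.10772 for Nlgn1. For 5 of them both WT basal arrays lay above the other 6 arrays, and for Tmprss11a both DN-Clim luminal arrays did. Choosing genes by a test on these same arrays favours such a separation, and its share over all genes was not counted. Groups of 2 arrays are too small to look for single arrays far from the others.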

How the results depend on the processing

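With DN-Clim, 3764 genes were called, and the count was 1642 at an unadjusted p under 0.001 with a 1.5-fold change and 2086 to 3720 when 1 array was left out, lowest without DN-Clim luminal replicate 1. For WT cells 4217 became 1972 and 2706 to 4075, lowest without WT basal replicate 2. Genes called the same way in both genotypes, 3068, became 1343 and 1927 to 2577. For the difference between genotypes the 6 genes became 3 with quantile normalization or with a common mean and variance (Cacng7, Wfikkn2 and Wif1 in both), 1 with a filter at 500 (Cacng7), 1 with the replicate number as a block (Cacng7), 35 at the unadjusted threshold and 0 to 5 when 1 array was left out. The block moved none of the other counts over all genes by more than 1.5 times: it gave 4052 DN-Clim calls, 4544 WT calls and 3314 shared ones. Gene list counts that it moved further (immediate-early and heat shock, endothelial and cornified envelope genes, each on the basal side) have its value beside them. Cyber-T gave 3946 DN-Clim and 4326 WT calls; it compares groups in pairs and was not run for the difference, for which fitting each genotype alone gives no value.

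Of the other alternatives of single genes, 1825 kept direction and side of the threshold, 127 lost a call, 12 gained one and 7 turned sign, all of the last in DN-Clim differences near 0. With quantile normalization these were -0.0078 for Lrrc4c and -0.30 for Nlgn1, with a common mean and variance -0.0621 for Nlgn1. When 1 array was left out the range was -0.11 to 0.23 for Cacng7, -0.0779 to 0.19 for Nlgn1 and -0.17 to 0.0223 for Wfikkn2. The cause of these changes was not tested, apart from the fewer genes of a higher filter and the fewer arrays of a smaller fit. With 16 added to each intensity the 10 largest basal differences were 4.77 to 6.87 and the 10 largest luminal ones -4.45 to -4.97, so the size of differences of genes near the bottom of the scale depends on that choice. Of 155 called genes with more than 1 probe set, 3 had a probe set of the other sign, and none of those passed an unadjusted p under 0.05 in limma.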

Other observations

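Of 23 measured immediate-early and heat shock genes, which respond to tissue dissociation, 4 were called higher in DN-Clim basal cells, 4 higher in luminal cells and 15 were not called (median 0.20, beside -0.10 over all genes, of which 30.2% were called). With the replicate block the counts were 7 and 4, and with a common mean and variance 6 and 2. Egr2, a zinc finger factor of the early growth response family, read 2529 and 2360.2 in DN-Clim basal and 93.6 and 138 in DN-Clim luminal cells (4.43, SE 0.33, limma adjusted p = 0.000201), and WT cells gave 4.65. Its relative Egr3 read 641 and 738 against 209 and 290.2 (1.48, SE 0.19, adjusted p = 0.0017). Klf6, a Krüppel-like factor, was higher in luminal cells at -1.47 (SE 0.18, adjusted p = 0.00155), and Zfp36, which promotes decay of unstable mRNAs, did not pass the test at 0.04 (adjusted p = 0.852, 95% interval -0.30 to 0.39). Of these genes 8 were called the same way in WT cells. The luminal count of 4 was 2 with quantile normalization and without DN-Clim basal replicate 2 or luminal replicate 1.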
